A study of Mus musculus with 6 samples.

Results

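The genes described are 9 members of the transforming growth factor beta (TGF-beta) pathway, chosen by name from the 15601 genes of the deposited count table. They are the ligand gene Tgfb1, the receptor genes Tgfbr1 and Tgfbr2, the signal transducer Smad3, and 5 genes that restrain the pathway: Smad7, Ski, Skil, Tgif1 and Ldlrad4. Each was read in every deposited cluster of CD8 T cells and in every library. All 9 had counts.

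The cells came from subcutaneous tumours of MB49, a mouse urothelial carcinoma line, grown in wild-type C57BL/6 males and females, with 3 biological replicates of each sex per the labels. Transcripts were counted cell by cell. In both groups 500000 MB49 cells were injected under the skin, tumours were taken on day 10, and live cells with CD3 and CD8 but no CD4 on the surface were sorted for a 10x Genomics 3' kit; the labels give the hosts' age as 6 to 8 weeks in one field and as 6 weeks in another. No drug, transgene or gene deletion is named for either group, and whether a replicate is 1 tumour or a pool is not given in the sources used here.

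TGF-beta is secreted in a latent form and is released by integrins and proteases. The active ligand binds TGFBR2, which recruits and phosphorylates TGFBR1, and TGFBR1 then phosphorylates SMAD2 and SMAD3, which enter the nucleus with SMAD4. In CD8 T cells the pathway is known for restraining effector genes and for favouring residence in tissue through Itgae, the gene of the integrin alpha chain CD103. SMAD7 is a feedback inhibitor that blocks the receptor, SKI and SKIL (SnoN) are corepressors that bind SMADs, TGIF1 is a homeodomain corepressor, and LDLRAD4 is a membrane protein that keeps SMAD2 and SMAD3 from the receptor.

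The table held 26698 cells, 9955 from females and 16743 from males, in 6 libraries numbered in the cell names. Libraries 1, 3 and 4 held male cells and libraries 2, 5 and 6 female cells. Summed counts of unique molecular identifiers (UMIs) outside cluster 2 ran from 23820769 to 62292575 per library. Median UMIs per cell were 6397.5 to 9210 in the male and 9043 to 10114.5 in the female libraries. A barcode sequence was repeated across library numbers 84 times, which touched 169 cells. Cd8a had a UMI in 87.5% of cells, Cd8b1 in 83.8% and Cd4 in 0.18%. The macrophage gene Lyz2 had a UMI in 1.36% of cells and C1qa in 0.592%, which gauges free RNA and stray cells. Cd68 and Itgam of the same myeloid list had one in 9.02% and 3.70%. Of the platelet genes Gp9 had none and Pf4 had a UMI in 0.884% of cells. Of the epithelial genes Krt19 had none, while Epcam, Krt18 and Krt8 had a UMI in 3.50%, 1.44% and 1.30% of cells.

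The authors' 11 clusters are called here by number and by their leading genes. Of the marker lists used, 9 of 10 naive or central memory markers were over 1.5 times their mean in the other clusters in cluster 7, 11 of 11 interferon-stimulated markers in cluster 9, and 13 of 13 proliferation markers in cluster 3. Cluster 5, led by replication genes, had 5 of 13. Cluster 7 also had 7 of 9 progenitor exhaustion markers. Cluster 2 had 6 of 10 natural killer or innate-like markers, 4 of them among its 10 leading genes, 7 of 10 naive markers, and a Cd8b1 level of 119 CPM (the counts-per-million scale) beside up to 1538 CPM elsewhere. Clusters 0 and 8 had 7 and 5 of 14 terminal exhaustion markers, and cluster 8 was led by Gzmc, Gzmf and Gzme. Cluster 1 was led by Gzmm, Rap1gap2 and Itgae and cluster 4 by Il2, Ccl4 and Ccl3. Cluster 4 also had 4 of the 14 exhaustion markers, and clusters 1 and 4 stay unnamed. Clusters 6 and 10 were shallow, at a median of 1742 and 1461 UMIs a cell, and rich in mitochondrial reads (30.0% and 20.3%). They also stay unnamed, although cluster 6 had 9 of 14 exhaustion markers. Their summed myeloid markers were the highest of the 11 clusters, at 58.2 and 46.0 CPM.

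The promoters of Tgfb1, Smad3 and Tgif1 are shown because these members peaked in different clusters. Windows run from 250 bases before to 50 bases after the start site and come from RefSeq (GRCm38.p6), which had a window for 6 of the 9 members. Tgfb1 lies on the plus strand, with its window at chr7:25686752-25687051. Smad3 lies on the minus strand, at chr9:63757945-63758244. Tgif1 lies on the minus strand, at chr17:70853483-70853782, the most upstream of its 5 listed start sites. Capitals mark CAGAC, the SMAD half-site, or GGGCGG, the SP1 site, on either strand; neither motif overlaps the other in these windows.
Tgfb1: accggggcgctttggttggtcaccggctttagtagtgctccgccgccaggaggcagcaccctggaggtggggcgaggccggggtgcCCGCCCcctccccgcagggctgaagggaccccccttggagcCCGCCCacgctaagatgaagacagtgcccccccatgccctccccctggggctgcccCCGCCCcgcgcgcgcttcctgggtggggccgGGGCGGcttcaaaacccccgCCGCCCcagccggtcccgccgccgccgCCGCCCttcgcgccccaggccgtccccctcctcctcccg
Smad3: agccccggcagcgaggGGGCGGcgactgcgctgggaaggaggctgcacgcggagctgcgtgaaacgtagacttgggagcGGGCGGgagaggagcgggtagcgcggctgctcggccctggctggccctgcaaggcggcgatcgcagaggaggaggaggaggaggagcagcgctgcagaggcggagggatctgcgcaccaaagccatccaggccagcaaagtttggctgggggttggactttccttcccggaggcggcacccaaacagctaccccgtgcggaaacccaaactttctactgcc
Tgif1: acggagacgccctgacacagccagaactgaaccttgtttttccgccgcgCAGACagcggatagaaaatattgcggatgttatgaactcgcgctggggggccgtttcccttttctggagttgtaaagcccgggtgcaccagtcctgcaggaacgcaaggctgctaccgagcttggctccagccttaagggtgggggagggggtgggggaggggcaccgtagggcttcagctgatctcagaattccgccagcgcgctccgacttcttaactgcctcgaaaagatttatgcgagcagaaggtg
CAGAC was in 49.6% of all 32851 promoter windows of this length and GGGCGG in 35.7%. The Tgfb1 window held GGGCGG at 6 places and the Smad3 window at 2, and neither held CAGAC. The Tgif1 window held CAGAC at 1 place and no GGGCGG. Of the windows at the annotated start, those of Tgfbr2 and Tgif1 held CAGAC, that is 2 of 6. A match is a description of the letters and not of a site in use.

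Levels by cluster are CPM of counts summed per library and cluster, as mean ± SD over 6 libraries. They are a description without a test, since the clusters were made from the same cells. Neighbours in an order of clusters are said to differ where the mean within-library difference exceeded its SD and all 6 libraries had the same sign. Every member's highest and lowest cluster differed in 6 of 6 libraries without overlap. The ratio of highest to lowest ran from 2.22 for Ski to 10.2 for Smad3, beside a median of 2.97 over 8622 genes at a mean of at least 5 CPM. Differences between clusters, not levels, were compared between genes.

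**Figure D1:**
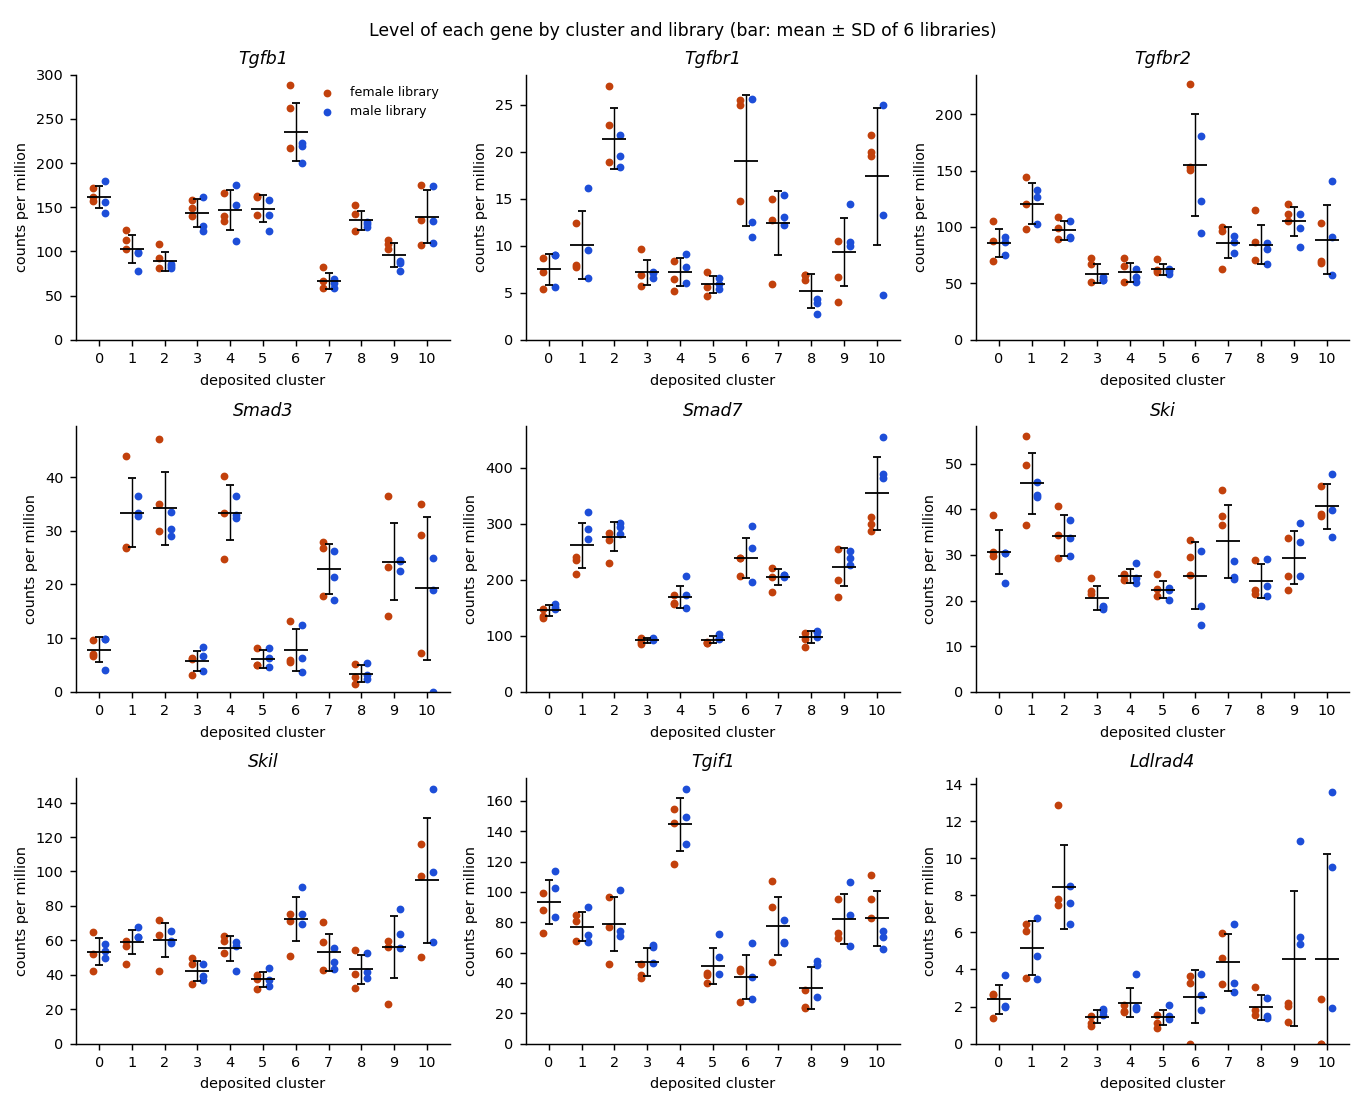
CPM of each gene (vertical axes, from 0) in the 11 deposited clusters (horizontal axes); points are libraries, orange for female and blue for male, and bars give the mean ± SD of 6 libraries. Smad3 stands high in clusters 1, 2 and 4 and low in 0, 3, 5 and 8, Tgif1 peaks in cluster 4, and Tgfb1 is lowest in cluster 7.

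Tgfb1 (chromosome 7, 25687002 to 25705077, plus strand, GRCm38), the ligand, was highest in the low-RNA cluster 6 and in cluster 0 and lowest in cluster 7. It had 39465 UMIs in all and a UMI in 56.4% of cells. In the low-RNA cluster 6 its level was 235 ± 33.3 CPM. Among the other clusters it was highest in cluster 0, at 162 ± 12.8 CPM (lowest library 143, median 159, highest 180). Clusters 5, 4, 3, 10 and 8 followed at 148, 147, 143, 139 and 135 CPM. Clusters 1, 9 and 2 had 103, 96.4 and 88.8 CPM. The naive or central memory-like cluster 7 was lowest, at 66.6 ± 8.74 CPM (58.7 to 82.4, median 65.5). The libraries of clusters 0 and 7 did not overlap, and the log2 ratio of cluster 7 to clusters 0 and 8 together was -1.18 ± 0.17 (SD, lower in 6 of 6 libraries). Of the 10 neighbouring pairs in this order, 2 differed: cluster 6 from 0, and 2 from 7. With every cell thinned to 2000 UMIs, the share of cells with a Tgfb1 UMI was 26.0% ± 1.62 in cluster 0 and 10.7% ± 1.91 in cluster 7. Unthinned, these shares were 69.5% and 37.8%.

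Of the genes for ligands and latency, Itgav and Furin were lower in cluster 7 than in clusters 0 and 8 in 6 of 6 libraries, and Nrros was higher in 5 of 6. Itgav, an integrin chain that releases TGF-beta, had 61.6 and 71.1 CPM in clusters 0 and 8 and 14.4 CPM in cluster 7, a log2 ratio of -2.10 ± 0.21 that was negative in 6 of 6 libraries. Furin, the protease that cuts the precursor, had 87.4 CPM in cluster 4, 42.5 in cluster 0, 34.3 in cluster 8 and 17.0 in cluster 7. Both were highest in the low-RNA cluster 6. Nrros, which holds latent TGF-beta at the cell surface, had 19.1 CPM in cluster 7 and 12.7 and 13.1 CPM in clusters 0 and 8. Itgav, Furin and Nrros were picked for mention after their values were seen. Of the 12 listed genes for ligands and latency, 3 reached a mean of 5 CPM and 7 were under 1 CPM, among them Tgfb2, Tgfb3, Itgb8 and Thbs1.

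Tgfbr1 (chromosome 4, 47353222 to 47414931, plus strand), the signalling receptor, was sparse, with 2511 UMIs and a UMI in 8.56% of cells. Its level was 21.4 ± 3.25 CPM in the innate-like cluster 2 (18.4 to 27.0, median 20.6) and 5.19 ± 1.76 CPM in cluster 8 (2.71 to 6.87, median 5.37). The low-RNA clusters 6 and 10 had 19.0 and 17.4 CPM, cluster 7 had 12.4 CPM and the other 6 clusters 5.89 to 10.1 CPM. Cluster 7 was above clusters 0 and 8 in 6 of 6 libraries, by 0.76 ± 0.44 on the log2 scale. No neighbours in the order differed by the rule above. The thinned share was 4.36% ± 1.00 in cluster 2 and 1.14% ± 0.83 in cluster 8. Unthinned, these shares were 13.3% and 7.86%.

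Tgfbr2 (chromosome 9, 116084293 to 116175360, minus strand), the ligand-binding receptor, had 22905 UMIs and a UMI in 50.1% of cells. Outside cluster 6 (155 ± 45.5 CPM) it was highest in cluster 1, at 121 ± 17.8 CPM (97.8 to 145, median 123). Clusters 9, 2, 10, 0, 7 and 8 had 105, 97.1, 88.5, 86.0, 85.9 and 84.3 CPM. Clusters 5, 4 and 3 formed a lower group at 62.6, 59.8 and 58.7 CPM, and the step from cluster 8 to cluster 5 held in 6 of 6 libraries. Cluster 1 was above clusters 0 and 8 by 0.49 ± 0.06 and cluster 4 was below them by a log2 ratio of -0.51 ± 0.17, each in 6 of 6 libraries. Cluster 7 did not stand apart from clusters 0 and 8 (0.00 ± 0.15, higher in 3 of 6). Thinned shares were 23.0% ± 3.82 in cluster 1 and 11.1% ± 2.67 in cluster 4. The receptor and the ligand therefore had different orders: Tgfb1 in cluster 4 stood above cluster 1 in 6 of 6 libraries and Tgfbr2 below it in 6 of 6.

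Smad3 (chromosome 9, 63646767 to 63757994, minus strand), which carries the signal to the nucleus, varied most among the members, and 93.7% of genes had a smaller ratio of highest to lowest cluster. It had 4121 UMIs and a UMI in 12.8% of cells. Clusters 2, 1 and 4 had 34.1 ± 6.75, 33.4 ± 6.41 and 33.4 ± 5.16 CPM. Clusters 9 and 7 had 24.2 ± 7.14 and 22.9 ± 4.73 CPM. Clusters 0, 6, 5 and 3 had 7.82, 7.80, 6.14 and 5.75 CPM, and cluster 8 had 3.34 ± 1.57 CPM (1.41 to 5.41, median 2.85). In cluster 10 the libraries ran from 0 to 35.0 CPM on 37 UMIs in all. Neighbours differed at 2 steps, cluster 4 from 9 and 3 from 8. No library of clusters 1, 2, 4, 7 or 9 came below 14.2 CPM, and no library of clusters 0, 3, 5 or 8 came above 9.88 CPM. Against clusters 0 and 8 together the log2 ratio was 2.27 ± 0.52 in cluster 1, 2.27 ± 0.36 in cluster 4 and 1.74 ± 0.53 in cluster 7, each in 6 of 6 libraries. For scale, 5.90%, 9.05% and 14.8% of the 8622 genes were past a log2 ratio of 1 in either direction in these contrasts. Thinned shares followed the levels, with 7.67% ± 1.85 in cluster 2, 6.94% in cluster 1, 1.54% ± 0.74 in cluster 0 and 0.50% ± 0.44 in cluster 8. Unthinned, 29.2% of cells in cluster 4, 7.30% in cluster 0 and 4.57% in cluster 8 had a Smad3 UMI.

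**Figure D2:**
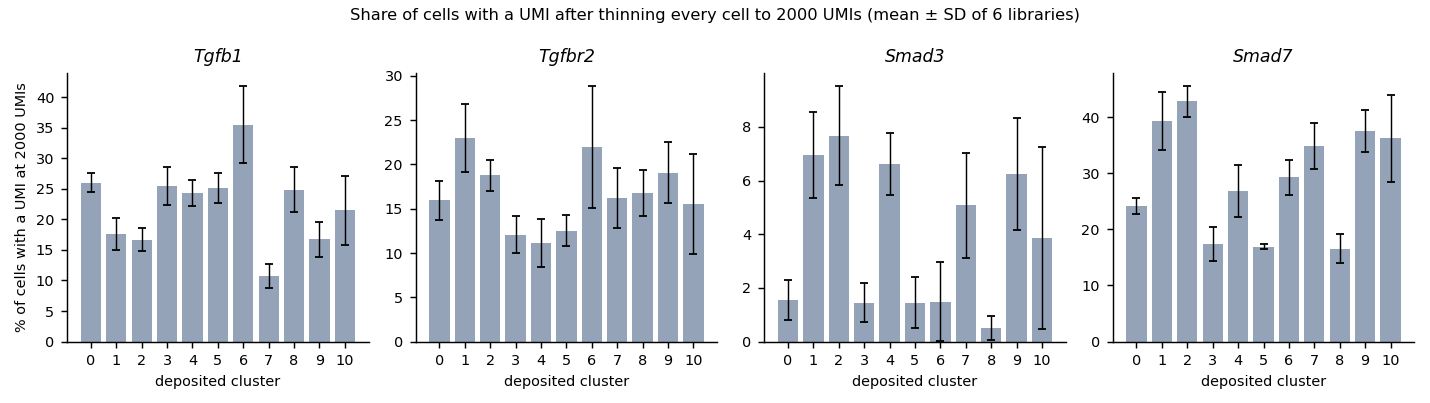
Percent of cells with at least 1 UMI of Tgfb1, Tgfbr2, Smad3 and Smad7 (vertical axes, from 0) in the 11 clusters after every cell was thinned to 2000 UMIs; bars are the mean and whiskers the SD of 6 libraries. Smad3 is 7.67% in cluster 2 and 0.50% in cluster 8, and Tgfb1 is 10.7% in cluster 7; of clusters 6 and 10 only 38.6% and 25.9% of cells were deep enough to enter.

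Smad7 (chromosome 18, 75367529 to 75395935, plus strand), the inhibitory SMAD that TGF-beta signalling itself induces, had 44197 UMIs and a UMI in 66.2% of cells. The low-RNA cluster 10 was highest at 354 ± 65.4 CPM (288 to 455, median 347). Clusters 2 and 1 had 277 ± 25.4 and 262 ± 40.3 CPM. Clusters 6, 9 and 7 had 239, 223 and 205 CPM, cluster 4 had 170 and cluster 0 had 145 CPM. Cluster 8 and the cycling clusters 5 and 3 were lowest, at 98.5 ± 10.6, 92.9 ± 6.45 and 92.2 ± 4.38 CPM. Neighbours differed at 3 steps: cluster 10 from 2, 7 from 4, and 0 from 8. Cluster 1 was above clusters 0 and 8 by 1.00 ± 0.16 and cluster 7 by 0.66 ± 0.17 on the log2 scale, and clusters 3 and 5 were below them at -0.48 ± 0.04, each in 6 of 6 libraries.

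The Smad7 level ran against the RNA content of the cells. Over the 9 clusters other than 6 and 10, Pearson's r between log2 CPM and log2 median UMIs per cell was -0.96, a description over clusters that share libraries. In UMIs per cell Smad7 was 1.74 in cluster 1, 1.74 in cluster 7, 1.57 in cluster 8 and 2.60 in cluster 3, an order unlike that in CPM. Median depth was 5345 UMIs per cell in cluster 1 and 23987.5 in cluster 3. Thinned to 2000 UMIs, 39.3% ± 5.12 of cells in cluster 1 and 17.5% ± 3.02 in cluster 3 had a Smad7 UMI; unthinned, these shares were 71.1% and 76.1%. The same r was -0.92 for Skil, -0.90 for Ski, -0.89 for Ldlrad4, -0.83 for Tgfbr2, -0.82 for Smad3, -0.69 for Tgfbr1 and -0.54 for Tgif1, and 0.64 for Tgfb1. The part of RNA content in these orders was not tested.

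The corepressor genes Ski and Skil had smaller ratios of highest to lowest cluster than the other 7 members. Ski (chromosome 4, 155154075 to 155222592, minus strand), with 7932 UMIs, was highest in cluster 1 at 45.7 ± 6.66 CPM (36.7 to 56.1, median 44.5) and lowest in cluster 3 at 20.6 ± 2.65 CPM (18.1 to 24.9, median 20.1). Its level in cluster 1 exceeded that in clusters 0 and 8 by 0.67 ± 0.18 on the log2 scale, in 6 of 6 libraries, and no neighbours in its order differed. Skil (chromosome 3, 31095058 to 31122577, plus strand), with 14442 UMIs, was highest in the low-RNA clusters 10 and 6 at 95.0 ± 36.3 and 72.2 ± 12.8 CPM. Without them its clusters ran only from 37.2 ± 4.30 CPM in cluster 5 to 60.0 ± 9.97 CPM in cluster 2, a ratio of 1.61, the smallest of the members. Neighbours differed at the steps from cluster 6 to 2 and from 3 to 5. At 2000 UMIs the Skil share was 7.24% ± 1.29 in cluster 5 and 11.8% ± 0.49 in cluster 2.

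Tgif1 (chromosome 17, 70844205 to 70853546, minus strand) had 21715 UMIs and a UMI in 41.6% of cells, and it peaked in the cytokine-rich cluster 4. Its level there was 145 ± 17.4 CPM (118 to 168, median 148). Cluster 0 followed at 93.3 ± 14.7 CPM, then clusters 10, 9, 2, 7 and 1 at 82.6, 82.3, 78.7, 77.6 and 76.9 CPM, clusters 3, 5 and 6 at 53.9, 51.2 and 44.0 CPM, and cluster 8 at 36.6 ± 13.6 CPM (23.6 to 54.4, median 32.9). The libraries of cluster 4 lay above those of cluster 0, whose highest was 113 CPM. The steps from cluster 4 to 0 and from 1 to 3 were the only neighbours that differed. Cluster 8 was below cluster 0 by a log2 ratio of -1.39 ± 0.39 in 6 of 6 libraries, although both held exhaustion markers, and Smad3 had -1.05 ± 0.53 in the same contrast. Thinned shares of Tgif1 were 24.7% ± 2.51 in cluster 4 and 6.93% ± 2.12 in cluster 8. Immediate early and dissociation genes, which tissue handling also raises, were highest in cluster 4 as well, at a summed 2896 CPM. Clusters 2, 10 and 0 followed at 2617, 2611 and 2565 CPM. The part of these genes in the Tgif1 level was not tested.

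Ldlrad4 (chromosome 18, 67933257 to 68268630, plus strand) was the rarest member, with 815 UMIs and a UMI in 2.95% of cells. It overlaps Fam210a on the opposite strand, and whether counting used strand is not given in the sources used here. Its level was 8.45 ± 2.26 CPM in cluster 2 (6.46 to 12.9, median 7.70), 5.18 ± 1.47 in cluster 1 and 1.41 ± 0.42 CPM in cluster 5. Cluster 7 stood above clusters 0 and 8 in 6 of 6 libraries, although its level rests on only 58 UMIs over the 6 libraries. Clusters 6 and 10 rest on 11 and 10 UMIs, and 1 and 2 of their libraries had none.

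Tgfb1 and the other members had unlike orders over the clusters. With clusters 6 and 10 left out, its Pearson's r with each of the other 8 members was negative, from -0.79 (Ldlrad4) to -0.10 (Tgif1), and over all 11 clusters 6 of the 8 were. Among the 28 pairs of the other members, r was above 0 in all without clusters 6 and 10 (0.05 to 0.94), and 1 pair was negative over all 11 clusters. Smad7 was most like Skil (0.90), Ldlrad4 (0.84) and Tgfbr1 (0.84). These values describe 11 points that share libraries and differ in depth.

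**Figure D3:**
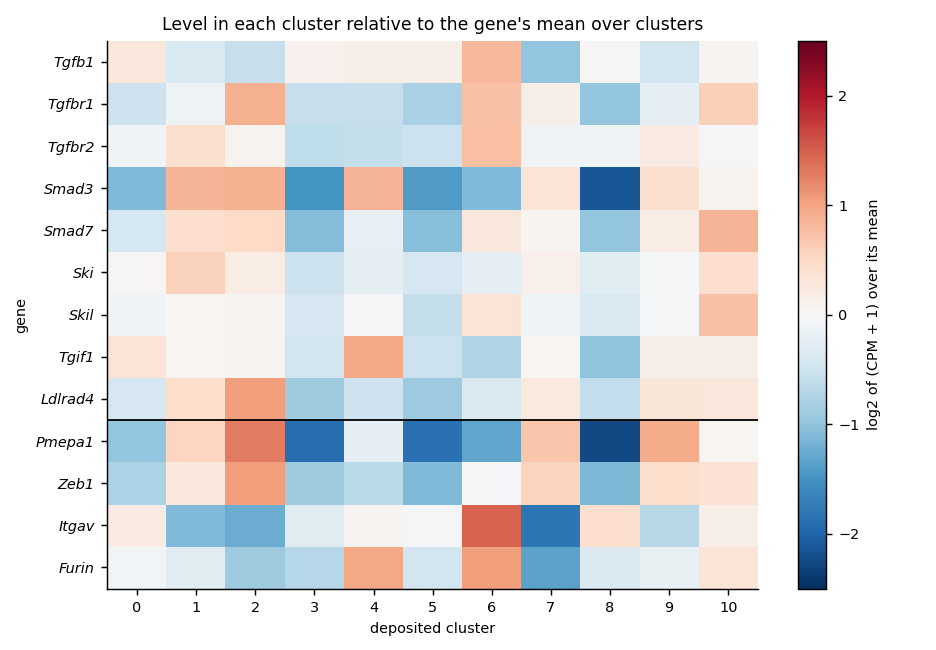
Colour gives log2 of a gene's mean CPM + 1 in a cluster over its mean across the 11 clusters; rows above the line are the 9 members, and the 4 rows below it are pathway genes picked after their values were seen. Smad3, Smad7, Ldlrad4, Pmepa1 and Zeb1 are red in clusters 1 and 2 and blue in 3, 5 and 8, and Tgfb1 and Itgav are blue in clusters 1, 2 and 7.

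Other genes of the pathway were read from a list sorted by role, of which 67 of 69 were in the table and 44 reached a mean of 5 CPM. Pmepa1, a TGF-beta target that restrains SMAD activation, was, like Smad3, high in clusters 1, 2, 7 and 9 and lowest in cluster 8. It had 141 ± 13.6 CPM in cluster 2, 109 in cluster 9, 92.8 in cluster 7, 83.1 in cluster 1, 47.8 in cluster 4, 28.3 in cluster 0 and 11.04 ± 4.98 CPM in cluster 8. Zeb1, a repressor that binds SMADs, had 137 CPM in cluster 2, 97.1 in cluster 7, 37.8 in cluster 0 and 30.0 in cluster 8. Itgae had 19.7 ± 10.2 CPM in cluster 1 and 1.16 to 5.93 CPM in the others, on 910 UMIs. Pmepa1 and Itgae, and the cluster values of Zeb1, were picked after their values were seen. Of the 10 genes that TGF-beta lowers in T cells, 3 were higher and 5 lower in cluster 7 than in clusters 0 and 8 in all 6 libraries. Of the 9 listed genes that it raises, 6 reached a mean of 5 CPM, and of these 0 were higher and 3 lower. Itgae, at a mean of 4.33 CPM, was left out of the 6. It had 2.61 CPM in cluster 7 and 1.23 and 1.17 CPM in clusters 0 and 8. Over all 8622 genes, 17.98% were higher and 36.8% lower in all 6 libraries in that contrast. Of the 9 members 4 were higher (Tgfbr1, Smad3, Smad7 and Ldlrad4) and 1 was lower (Tgfb1). Members were kept at any level, and Ldlrad4 did not reach the mean of 5 CPM that the 8622 genes had to reach.

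The genes most like each member over the 11 clusters were named by the highest Pearson's r of log2(CPM + 1) among genes at a mean of at least 5 CPM. For Tgfb1 they were Slc39a4 (0.97) and Yipf5 (0.97), for Tgfbr1 Tcf12 (0.96), Mcoln2 (0.96) and Gatad2b (0.96), and for Tgfbr2 B4galt7 (0.96), Saraf (0.96) and Sgsh (0.95). For Smad3 they were Irf2bp2 (0.96), Zhx2 (0.96) and Srsf5 (0.96), and for Smad7 Tle4 (0.99), Jmjd1c (0.99) and Nfrkb (0.97). Ski was most like Zfp943 (0.97), Mef2d (0.96) and Fam49a (0.94), and Skil most like Ino80d (0.99) and Cdk12 (0.98). Tgif1 was most like Eomes (0.93), a T-box factor of CD8 T cells that is also on the list of genes TGF-beta lowers, then Chd1 (0.92) and Tob2 (0.91). Ldlrad4 was most like Vav3 (0.97), Scml4 (0.96) and Hmbox1 (0.96). Each r was over 11 clusters and has no test.

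The sexes were compared here on library sums of counts, leaving out the innate-like cluster 2, with edgeR's quasi-likelihood test. A gene is called where its Benjamini-Hochberg adjusted p is under 0.05. Of 12194 genes tested 11 were called, 0.0902% of them, and of the 9 members 0 were called; 2 members, Smad7 and Ldlrad4, had an unadjusted p under 0.05, as had 8.36% of all genes tested. No member was called by DESeq2 or limma-voom either. Members were higher in males for 6 and lower for 3, with a median log2 fold change (male minus female) of 0.10 beside 0.004 over all genes tested. Levels in this comparison are CPM scaled by edgeR's TMM factors.

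Smad7 was 154, 153 and 148 CPM in male libraries 1, 3 and 4 and 131, 123 and 125 CPM in female libraries 2, 5 and 6. The sexes did not overlap, as was so with males higher for 8.40% of all genes tested and with females higher for 5.43%. The log2 fold change was 0.27 (SE 0.07, higher in 3 of 3 male libraries; edgeR adjusted p = 0.286). With the same number of cells of each cluster drawn from every library the value was 0.11 (edgeR adjusted p = 0.983). The sexes also differed in their cluster shares. Cluster 1 made up 14.8% to 19.1% of male and 10.99% to 12.6% of female cells outside cluster 2, and cluster 7 made up 6.59% to 14.0% and 2.67% to 5.11%. The cycling cluster 3 made up 8.57% to 10.4% of male and 11.7% to 12.4% of female cells. Cluster 6, at 239 CPM of Smad7, averaged 8.04% of male and 10.2% of female cells, and cluster 10, the highest in Smad7, 4.80% and 4.72%. The part of these shares in the Smad7 difference was not tested beyond the equal draw. Median depth was 6397.5 to 9210 UMIs per cell in male and 9043 to 10114.5 in female libraries. The part of depth in the Smad7 difference was not tested. No member was called in the fit on thinned cells, but none was called without thinning either, so this count cannot show the part of depth.

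Ldlrad4 was 2.84, 2.39 and 2.87 CPM in the male and 2.07, 1.92 and 1.92 CPM in the female libraries, without overlap. Its log2 fold change was 0.46 (SE 0.17; edgeR adjusted p = 0.470). Tgif1 was 77.0, 65.5 and 89.3 CPM in males and 62.6, 67.9 and 66.1 CPM in females, and library 3 fell within the female range. Its log2 fold change was 0.24 (SE 0.11; edgeR adjusted p = 0.612), with 0.12 without male library 4 and 0.08 with cells thinned. Tgfb1 was 112, 152 and 132 CPM in males and 154, 144 and 144 CPM in females, with overlap, at -0.16 (SE 0.11; edgeR adjusted p = 0.734). The other 5 members overlapped between the sexes, with log2 fold changes from -0.09 (Ski) to 0.22 (Smad3).

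**Figure D4:**
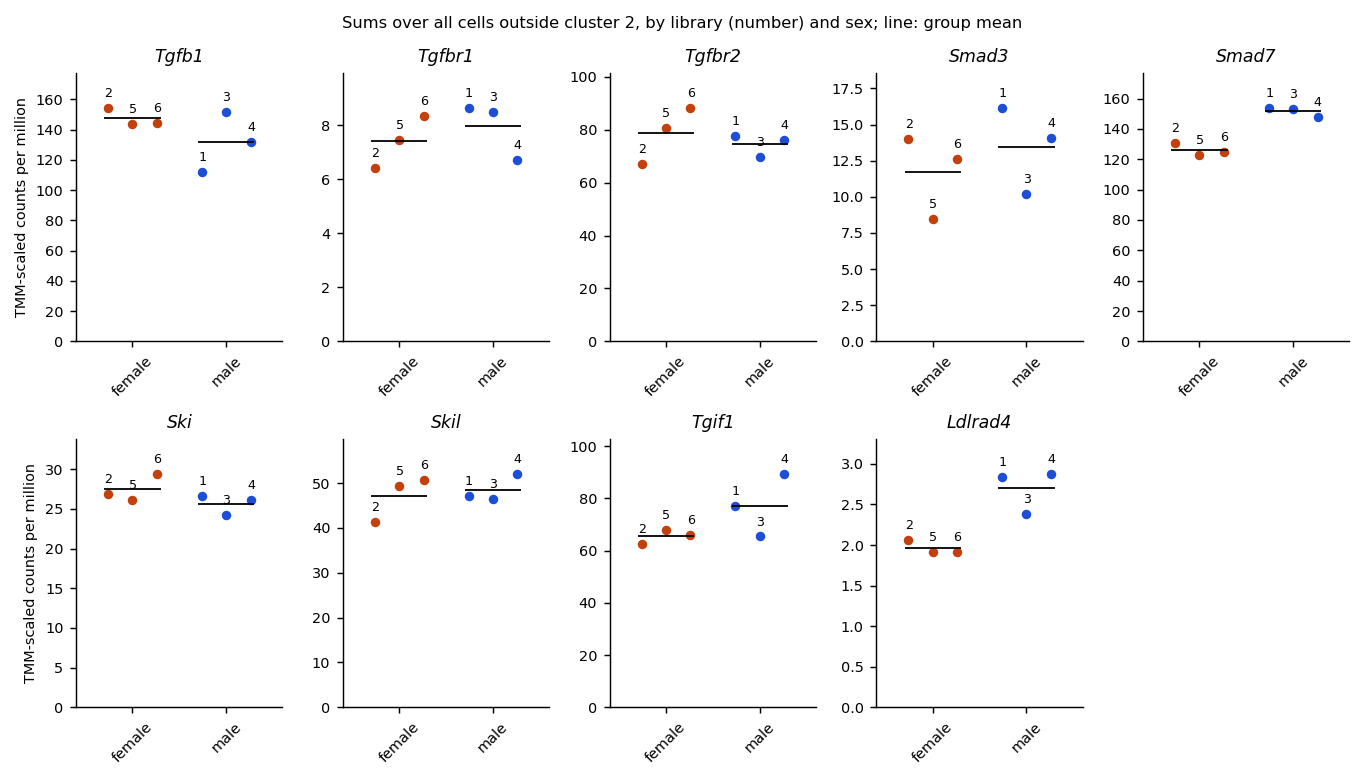
TMM-scaled CPM of each member (vertical axes, from 0) in sums over all cells outside cluster 2; points are libraries, labelled by number and grouped by sex, and lines are group means. The 3 male points lie above the 3 female points for Smad7 and Ldlrad4 and overlap them for the other 7 genes.

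Of the other pathway genes 61 were tested and 0 were called (6 at an unadjusted p under 0.05, or 9.84%, near the share of all genes), with 2 called by DESeq2 (Smad1 and S1pr1) and 1 with cells thinned (Zeb1). The smallest p-values belonged to Smad1, Bambi, Zeb1 and Klrg1. Smad1, which carries bone morphogenetic protein signals, had a log2 fold change of 0.93 (SE 0.21; edgeR adjusted p = 0.210). Bambi, a decoy receptor, had 0.85 (SE 0.21; edgeR adjusted p = 0.236). Zeb1 had 0.36 (SE 0.11; edgeR adjusted p = 0.376) and Klrg1, a receptor of short-lived effector cells, had -0.45 (SE 0.15; edgeR adjusted p = 0.443). The list's median was 0.03.

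Within clusters, 91 of the 99 pairs of member and cluster passed the filter on low counts, and 1 was called, which was Smad7 in cluster 1. The background of called genes in clusters 0 to 10 was 0.139%, 3.80%, 0.358%, 0.142%, 0.105%, 0.0979%, 0.181%, 0.168%, 0.0968%, 3.41% and 0.274% of those tested. Clusters 1 and 9 thus had far more called genes than the other 9, and the Smad7 call came in 1 of them.

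In cluster 1 Smad7 was 297, 330 and 270 CPM in male libraries 1, 3 and 4 and 241, 210 and 231 CPM in female libraries 2, 5 and 6. The highest female library stayed below the lowest male one. How many of all genes lacked overlap in cluster 1 was not counted. The log2 fold change was 0.40 (SE 0.10; edgeR adjusted p = 0.0365). The call was lost without library 1, 2, 3 or 5 (log2 fold changes 0.40, 0.44, 0.32 and 0.33; edgeR adjusted p = 0.135, 0.0538, 0.199 and 0.240). Median UMIs per cell in cluster 1 were 4319.5 to 6184 in males and 6488 to 6996 in females. In UMIs per cell Smad7 overlapped between the sexes, at 1.72, 2.23 and 1.32 in males and 1.86, 1.51 and 1.79 in females. At 2000 UMIs the share of cells with a Smad7 UMI averaged 43.4% in males and 35.3% in females. Naive or central memory markers summed to 1789 to 2398 CPM in male and 1405 to 1770 CPM in female libraries of this cluster, terminal exhaustion markers to 3172 to 3796 and 4395 to 6595 CPM, and effector markers to 2371 to 3146 and 3781 to 4203 CPM. The part of depth and of these markers in the Smad7 difference was not tested.

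Over the clusters Smad7 was higher in males in 11 of 11, with log2 fold changes from 0.05 in cluster 3 to 0.47 in cluster 10. Tgfb1 was lower in males in 10 of 11 clusters, from -0.29 in cluster 9 to 0.06 in cluster 10, with a smallest edgeR adjusted p of 0.188 (cluster 1). Tgif1 was higher in males in 9 of 11 clusters, up to 0.65 in cluster 8, with a smallest edgeR adjusted p of 0.471. Tgfbr1 ran from -0.84 in cluster 8 to 0.89 in cluster 9 and Ski from -0.50 in cluster 7 to 0.33 in cluster 9, none of them called. Clusters share libraries, so these counts are no set of independent replicates. How many of all genes had the same sign in every cluster was not counted. The part of depth, which differed between the libraries of the sexes, in these counts was not tested.

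**Figure D5:**
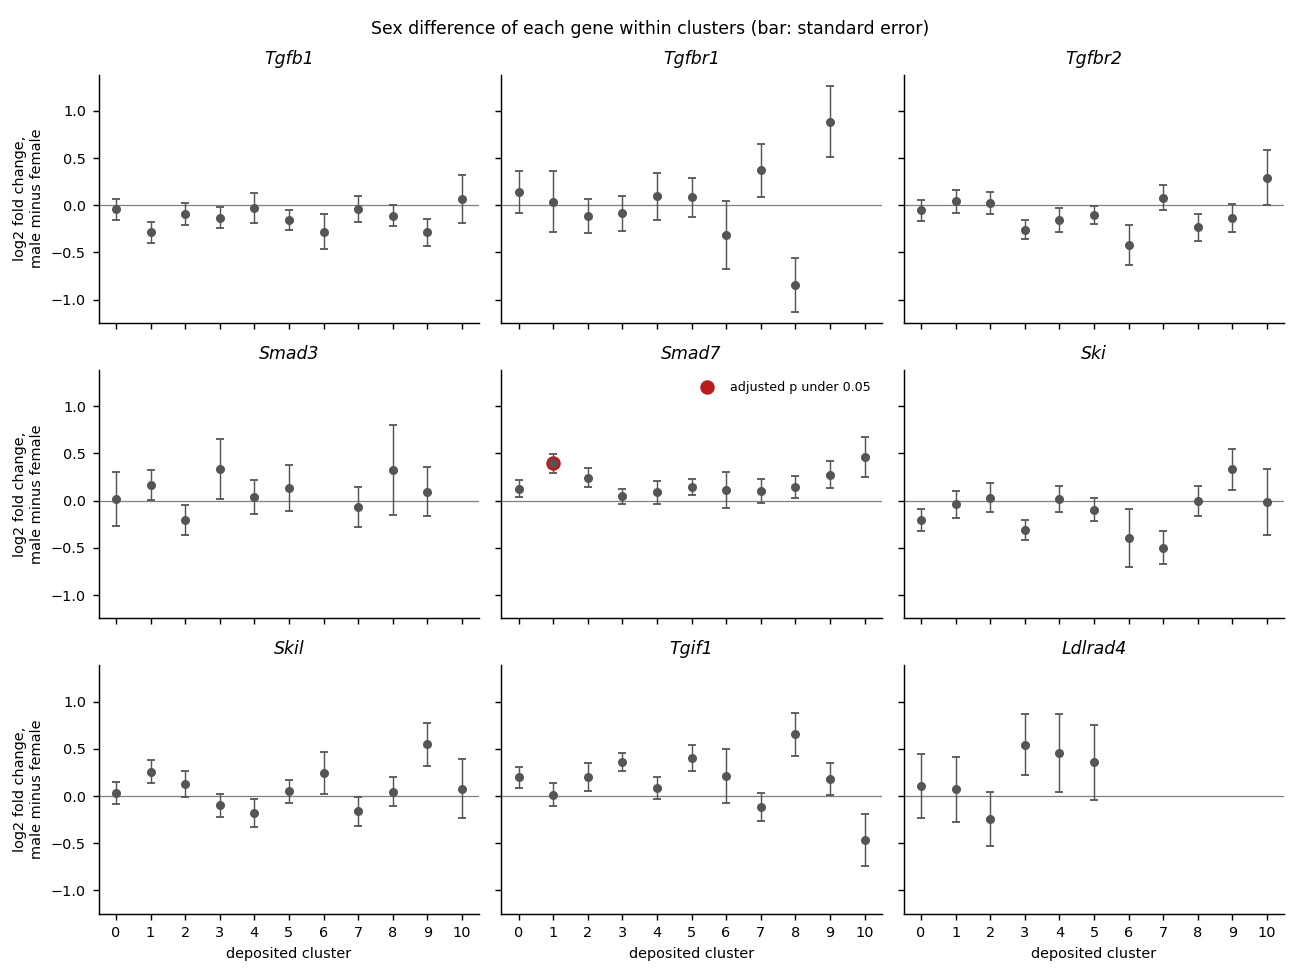
Log2 fold change, male minus female, of each member (vertical axes) in each cluster where it passed the filter on low counts (horizontal axes); whiskers are standard errors and the red point has an adjusted p under 0.05. Smad7 lies above 0 in 11 of 11 clusters and its red point is cluster 1.

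Among the other pathway genes, 13 pairs of gene and cluster were called. Cluster 1 had 49 such genes tested, with 2 calls toward males (higher there) and 3 toward females. Over all 9234 genes tested in it, 148 calls went toward males and 203 toward females. Cluster 2 had 46 tested and 1 call, toward females, beside 7 and 25 over all 8935 genes. Cluster 9 had 42 tested and 7 calls, all toward females. Over all 8030 genes tested in it, 90 calls went toward males and 184 toward females. In cluster 1 Smad1 (log2 fold change 1.28; edgeR adjusted p = 0.0493) and Zeb1 (0.56; edgeR adjusted p = 0.0414) were higher in males. Fkbp1a, which binds TGFBR1 and holds it inactive (-0.52; edgeR adjusted p = 0.0136), Bhlhe40 (-0.56; edgeR adjusted p = 0.0078) and Nrp1, a coreceptor for TGF-beta (-0.80; edgeR adjusted p = 0.0021), were higher in females. Nrp1 in cluster 1 was 40.5, 28.9 and 34.3 CPM in the male and 61.0, 57.1 and 66.8 CPM in the female libraries. In cluster 2 Zeb2 was higher in females (-0.89; edgeR adjusted p = 0.0391). In cluster 9 Prf1 (-1.42), Klrg1 (-1.42), Gzmb (-1.01), Zeb2 (-0.91), Itgav (-0.86), Bhlhe40 (-0.78) and Nrp1 (-0.69) were higher in females, with edgeR adjusted p-values from 0.0037 to 0.0416. Terminal exhaustion markers in cluster 9 summed to 7571 to 13666 CPM in female and 3186 to 4973 CPM in male libraries. Naive or central memory markers summed to 1028 to 1645 and 1780 to 2462 CPM. Effector markers overlapped, at 2545 to 3078 and 2009 to 2627 CPM. Gzmb is on the exhaustion list, and Klrg1 and Zeb2 are on the effector list. The part of these marker differences in the cluster 9 calls was not tested. Only Nrp1 in cluster 1 and Bhlhe40 and Prf1 in cluster 9 kept their call without each library in turn. Zeb2 in cluster 9 lost it without library 5 (edgeR adjusted p = 0.0701) and Bhlhe40 in cluster 1 without library 1 (0.0612). The other 8 lost it, with the same sign, when any of several libraries was left out. In cluster 1 these were libraries 1, 4, 5 and 6 for Smad1 (log2 fold changes 0.83 to 1.34), 1, 3, 5 and 6 for Zeb1 (0.36 to 0.60) and 1, 3 and 5 for Fkbp1a (-0.50 to -0.40). For Zeb2 in cluster 2 they were libraries 1, 2, 3 and 5 (-0.98 to -0.75). In cluster 9 they were libraries 1, 3 and 5 for Itgav (-0.76 to -0.69), 1, 3, 5 and 6 for Nrp1 (-0.77 to -0.50), 4 and 5 for Gzmb (-1.02 to -1.01) and 1, 2, 3 and 5 for Klrg1 (-1.40 to -1.07).

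Whether a member's sex difference was unequal in the naive or central memory-like cluster 7 and in clusters 0 and 8 was tested as an interaction, with the library as a block. Of 10397 genes 0.106% were called and 0 of the 9 members were. Of the members Tgif1 had the smallest p, unadjusted 0.0049 in edgeR, with a difference of -0.43 on the log2 scale (SE 0.15; edgeR adjusted p = 0.440). Only 1 of the 9 members was at an unadjusted p under 0.05, and limma-voom called 0. The share of all genes at such a p was not counted for the interaction. For Tgif1, clusters 0 and 8 together had 88.0, 63.1 and 95.0 CPM in males and 58.4, 67.5 and 67.4 CPM in females, and cluster 7 had 66.6, 66.9 and 81.5 CPM in males and 53.6, 107 and 89.9 CPM in females. The sexes overlapped in both.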

How the data were processed

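The deposited table holds raw UMI counts per gene and cell and the deposited metadata, in other units, the host's sex, the cluster number and the UMI count per cell. Cell Ranger and Seurat appear in the submitters' processing notes without versions, with mm10 as the build. How cells were filtered, whether strand was used and how doublets were treated is not given in the sources used here; no doublet caller was run. The labels give no batch. Libraries were told apart by the number that ends each cell name, which could not be tied to the labels' replicate numbers. The members and lists were chosen with earlier results of these data known.

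Counts of each library were summed without cluster 2, and again for each cluster (at least 20 cells; the smallest sum held 93). The test was edgeR 4.0.16 under R 4.3.3 (robust quasi-likelihood test, filterByExpr, TMM, Benjamini-Hochberg), with DESeq2 1.42.0 and limma 3.58.1 as alternatives; the fits were tested on simulated data. Cells were thinned by a seeded draw, leaving out shallower ones; 1000 and 4000 UMIs were alternatives. Ratios between clusters used log2(CPM + 1). Marker counts above 1.5 times the other clusters were a rule set after the data were seen. Genes named were all members, called pathway genes (also in the interaction), up to 4 more of that list with the smallest p, and the 3 most like each member, leaving out gene models; 2 of these genes are not reported here. Positions came from GENCODE M21 (GRCm38, the same build as mm10), which matched 9 of 9 members. Intervals of single values cover counting error only, and p-values measure the spread between libraries.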

Additional observations from a re-analysis of the deposited data

Results flagged for a closer look

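Zeb1, a SMAD-binding repressor on the pathway list, had a sex difference in cluster 7 that differed from that in clusters 0 and 8, by -0.64 on the log2 scale (SE 0.14; edgeR adjusted p = 0.0479, interaction with the library as a block). In cluster 7 it was 84.3, 73.5 and 91.6 CPM in male libraries 1, 3 and 4 and 114, 123 and 96.3 CPM in female libraries 2, 5 and 6, all females above all males. These sums held 713, 269 and 422 cells in males and 126, 126 and 96 cells in females. How many of all genes lacked overlap in cluster 7 was not counted. Zeb1 in clusters 0 and 8 together was 46.9, 30.0 and 39.9 CPM in males and 33.9, 28.2 and 32.2 CPM in females, with overlap. The difference was past the threshold without library 3 or 6 and not without library 1, 2, 4 or 5 (-0.53, -0.62, -0.67 and -0.54; edgeR adjusted p = 0.586, 0.0597, 0.122 and 0.344), nor by limma-voom (-0.65; adjusted p = 0.0638), alternatives chosen after seeing the data.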

How the results depend on the processing

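No paired analysis was possible because the cell names carry library numbers that could not be tied to the labels' replicate numbers. No member was called over all CD8 T cells under any of 15 alternatives, and none in the interaction under 7. Over all genes DESeq2 called 127 and thinned cells gave 56, beside 11. Of the other pathway genes, 2 were called by DESeq2 and 1 with cells thinned. Tgfbr2 changed sign to 0.046 with cells thinned, and with 1 library left out it ran from -0.19 to 0.012; Skil ran from -0.052 to 0.094, and neither was called. Within clusters the count of members called was 3 with no filter on low counts, adding Skil and Ldlrad4 in cluster 9, and 0 to 1 when 1 library was left out; fewer samples were then in the fit. The highest cluster stayed above the lowest in 72 of 72 alternatives. The libraries of these clusters did not overlap, so pooling cells or leaving out 1 library could not reverse the order. Only dividing each cell by its own total could have done so. Of 144 values of those levels 3 moved by more than 1 SD, all with each cell divided by its own total. The 27 likeness values stayed at 0.90 or above. Thinned shares scale with the depth chosen. Depth limits Ldlrad4, Tgfbr1 and clusters 6 and 10 most.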
